A study of Mus musculus with 6 samples.

Results

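MHC class II presentation was followed through 7 transcripts of group 2 innate lymphoid cells (ILC2s) from mouse lung: the class II chain genes H2-Aa, H2-Ab1 and H2-Eb1, the invariant chain gene Cd74, the protease gene Ctss, the peptide editor gene H2-DMa and the transactivator gene Ciita. They were chosen by name as genes of this pathway, and all 7 were present among the 17438 genes of the deposited count table. The Cd48 KO group (n = 3) carried the Cd48 deletion labelled B6.129S4-Cd48tm1Rsr/EpaulJ, a name that gives a 129S4 origin of the targeted allele, and the WT group (n = 3) carried no targeted allele. Every sample had the strain label CB57BL/6, was made of ILC2s sorted from lung, was given the alarm cytokine IL-33 and was cultured before lysis. The age and sex of the mice, the dose of IL-33 and the time in culture were not in the labels. Library preparation started from 10 pg of RNA per sample. The series' design text speaks of duplicates, and 3 samples of each genotype were used here. Whether each sample was a different animal is not labelled, so p-values reflect only how these samples vary, technical variation included.

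MHC class II molecules are pairs of an alpha and a beta chain that show peptides from endocytosed proteins to CD4+ T cells. The chains assemble with the invariant chain in the endoplasmic reticulum. Cathepsin S trims the invariant chain in the endosome, and the editor H2-DM then exchanges the remaining fragment for a peptide. CIITA binds no DNA itself and switches on class II genes by docking on factors that hold the X and Y boxes of their promoters. ILC2s are known to display some class II and to engage CD4+ T cells in mice, at lower levels than dendritic cells or B cells. C57BL/6 mice lack a working H2-Ea gene, so the beta chain encoded by H2-Eb1 has no partner at their surface.

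Deposited counts summed to between 16135210 and 17600475 per KO library and between 14928623 and 27450400 per WT library. Cd48, the targeted gene, stood at 4.40 to 5.59 CPM in KO libraries and 41.6 to 58.2 CPM in WT libraries, where CPM are TMM-scaled counts per 1000000. WT1 stood apart from the rest: 15315 genes had a count in it, against at least 16729 in each of the others, and sample quality weights in limma-voom gave it 0.0919 and the others 1.08 to 2.36. The biological coefficient of variation was 0.258 over the 6 libraries and 0.109 without WT1. Tests are therefore given for all 6 libraries and for the 3 KO libraries against WT2 and WT3. All 14 ILC2 marker genes of the list used were measured, and their summed level was 14400 to 15300 CPM in KO libraries and 12700 to 16500 CPM in WT libraries. Il5 alone gave 6840 to 7640 CPM in KO and 5600 to 10000 CPM in WT. Of the 14, 0 were called over 6 libraries, where 0.03% of all genes were called. Il2ra and Il5 were called higher in KO without WT1, where 1.82% of all genes were called in either direction. Their log2 fold changes were 0.31 and 0.29 without WT1, with adjusted p of 0.02 and 0.0332 (edgeR, BH). Over 6 libraries they were 0.32 and -0.02. Thy1 went the other way, at -0.64 over 6 libraries and -0.47 without WT1, with adjusted p of 0.69 and 0.298 (edgeR, BH). Of the 14, 4 had negative log2 fold changes over 6 libraries and 5 without WT1. An unadjusted p under 0.05 (edgeR) was seen for 2 of the 14 over 6 libraries, beside 918 of 13317 tested genes. Without WT1 it was seen for 7, beside 1865 of 13643.

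Cd74 and Ctss were lower in every KO library than in any WT library, by 37.9% and 30.8% in the 6-library fit, and 4 of the other 5 members had lower KO means too. Among all tested genes, 9.11% had every KO library below every WT library, and 50.5% had a negative log2 fold change over 6 libraries. Only Cd74 and Ctss passed a test over all genes, and only when WT1 was left out or, for Cd74, under other tools. With all 6 libraries 0 of 7 members were called at an adjusted p under 0.05 (edgeR quasi-likelihood, Benjamini-Hochberg or BH over 13317 genes), where 0.03% of all genes were called and 0.015% were called lower. Of the members, 3 had an unadjusted p under 0.05, namely Cd74, Ctss and H2-Aa, all lower in KO, as had 3.95% of all tested genes. Without WT1, 2 of 7 members were called, both lower in KO, where 1.82% of 13643 genes were called and 0.652% were called lower. DESeq2 and limma-voom called the same pair lower without WT1, beside 1.12% and 0.55% of all genes. The median log2 fold change of KO over WT was -0.46 over the members and -0.004 over all tested genes with 6 libraries. Without WT1 it was -0.58 over the members and 0.0 over all tested genes. In these bulk samples, fewer cells that carry a transcript and less of it per cell cannot be told apart.

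**Figure D1:**
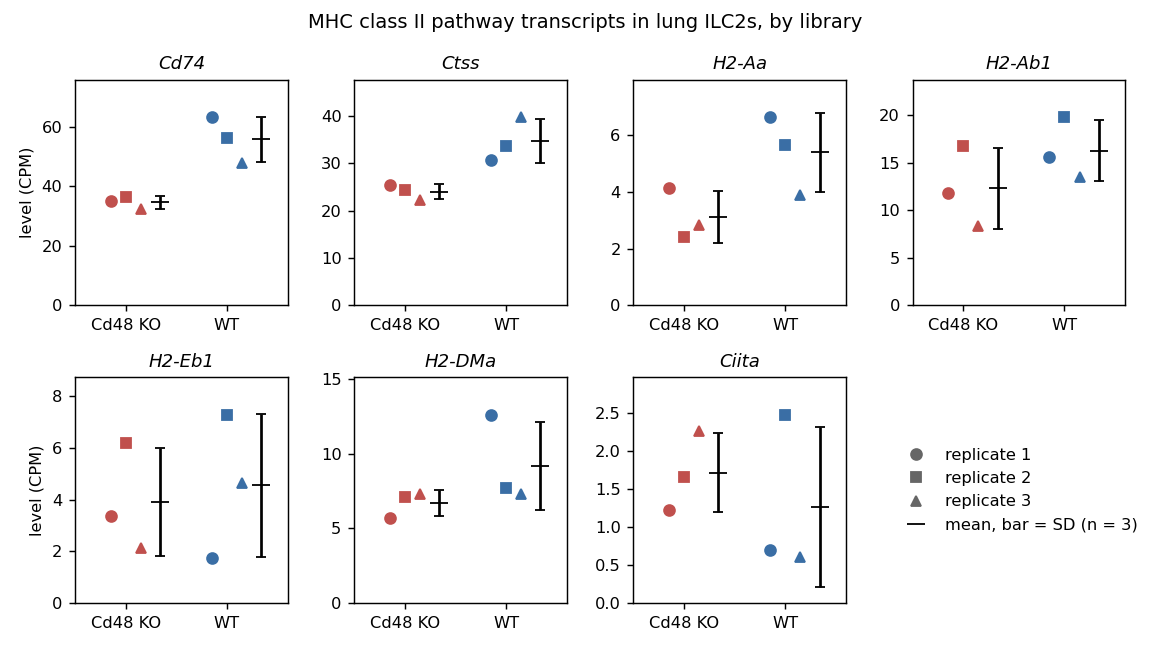
Level of each member (y axis, CPM, starting at 0) in the Cd48 KO and WT libraries (circle, square and triangle are replicates 1, 2 and 3; the black mark is the mean with its SD, n = 3). The KO libraries of Cd74 sit at 32.3 to 36.6 CPM, below all WT libraries, whereas the points of H2-Ab1, H2-Eb1, H2-Aa and Ciita overlap between genotypes.

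Cd74 (GRCm38 chromosome 18, 60803848 to 60812652, plus strand) encodes the invariant chain, which guides class II molecules to the endosome and is also a receptor for the cytokine MIF. Its level was 35.1, 36.6 and 32.3 CPM in KO1, KO2 and KO3, against 63.3, 56.3 and 48.0 CPM in WT1, WT2 and WT3. The groups did not overlap, and the KO libraries lay close together. The group means were 34.7 ± 2.17 CPM in KO and 55.9 ± 7.63 CPM in WT (SD, n = 3 each). This gave a log2 fold change of -0.69 (SE 0.15, 95% interval -1.03 to -0.34) and an adjusted p of 0.577 (edgeR, BH). On the same 6 libraries Cd74 was called lower by DESeq2 (adjusted p 0.0102) and by quality-weighted limma-voom (adjusted p 0.0401), which called 0.39% and 0.33% of all genes lower. Without WT1 Cd74 fell, with a log2 fold change of -0.58 (SE 0.11, 95% interval -0.82 to -0.35) and an adjusted p of 0.0167 (edgeR, BH). That call was lost when WT2, KO2 or KO3 was left out as well, with adjusted p of 0.14, 0.0561 and 0.0985.

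Ctss (chromosome 3, 95526786 to 95556403, plus strand) encodes cathepsin S, the protease that makes the last cut in the invariant chain in most antigen-presenting cells. Its level was 25.4, 24.3 and 22.2 CPM in KO1, KO2 and KO3, against 30.6, 33.6 and 39.7 CPM in WT1, WT2 and WT3. Here too every KO library lay below every WT library, but WT1 was the lowest WT library for Ctss and the highest for Cd74. The means were 24.0 ± 1.6 CPM in KO and 34.6 ± 4.64 CPM in WT (SD, n = 3 each). Its log2 fold change was -0.53 (SE 0.15, 95% interval -0.89 to -0.17) with an adjusted p of 0.69 (edgeR, BH). Without WT1 Ctss fell, with a log2 fold change of -0.62 (SE 0.12) and an adjusted p of 0.0257 (edgeR, BH). Leaving out WT3, KO2 or KO3 as well ended the call, with adjusted p of 0.18, 0.105 and 0.131.

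The level of Cd74 relative to Ctss, both per kilobase of transcript, was 1.33, 1.45 and 1.40 in KO1, KO2 and KO3, against 1.99, 1.61 and 1.16 in WT1, WT2 and WT3. The ratio needs no library scaling. The KO values lay inside the WT range, so a difference in the balance of the pair was not seen between the genotypes.

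The class II chain genes lie together in the MHC on chromosome 17. Because class II chains are switched on through the X and Y boxes just upstream of their start sites, the stretches that hold these letters are shown for an alpha and a beta chain gene, beside that of Ctss, which holds neither. Each is the 250 bases upstream of a RefSeq start site in the GRCm38.p6 table, 5′ to 3′ on the strand of the gene. Capitals mark matches to the Y box core, ATTGG, and to letters of the X box, which were AG, 2 free bases, AC, 2 free bases and ATG. Both strands were searched, so CCAAT is the Y box read on the other strand, and no match overlapped another.
H2-Eb1 (chr17:34305617-34305866, plus strand): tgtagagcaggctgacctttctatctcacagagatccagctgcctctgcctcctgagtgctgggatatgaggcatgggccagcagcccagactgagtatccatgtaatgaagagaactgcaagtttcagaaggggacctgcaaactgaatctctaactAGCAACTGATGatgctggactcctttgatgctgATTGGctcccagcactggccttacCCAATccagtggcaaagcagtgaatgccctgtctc
H2-Aa (chr17:34287824-34288073, minus strand): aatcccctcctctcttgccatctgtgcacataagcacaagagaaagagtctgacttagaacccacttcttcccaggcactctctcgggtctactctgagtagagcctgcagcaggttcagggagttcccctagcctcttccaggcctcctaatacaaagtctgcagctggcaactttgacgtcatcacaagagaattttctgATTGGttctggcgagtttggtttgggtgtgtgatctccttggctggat
Ctss (chr3:95526536-95526785, plus strand): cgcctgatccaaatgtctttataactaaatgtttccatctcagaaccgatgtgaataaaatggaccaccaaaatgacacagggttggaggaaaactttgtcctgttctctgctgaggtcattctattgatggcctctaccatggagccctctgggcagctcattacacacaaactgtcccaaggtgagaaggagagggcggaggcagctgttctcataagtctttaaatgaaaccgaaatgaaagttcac

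In H2-Eb1 the X box letters began 92 bases and the Y box 59 bases upstream of the start, 33 bases apart. Among the other class II genes, the window of H2-DMb1 held the same pair 34 bases apart, that of H2-Eb2 33, that of H2-Ob 31 and that of H2-Oa 98 bases apart. In H2-Aa the Y box began 48 bases upstream, and the X box letters searched were not in the window. H2-DMa had windows at 2 start sites, of which 1 held ATTGG, at 198 bases upstream. Of 32851 RefSeq windows, 33.8% held ATTGG, 2.6% held the X box letters and 1.08% held both. Windows were read for 4 of the 7 members, and none was found for H2-Ab1 or Ciita. Chromosome 18, where Cd74 lies, was left out when these windows were collected. Whether Cd74 has a window with these letters was therefore not examined. A match of letters describes the sequence and does not show that a factor binds there.

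H2-Ab1 (chromosome 17, 34257689 to 34269419, plus strand), the beta chain of I-A, was the most abundant chain transcript. It was at 11.8, 16.8 and 8.30 CPM in KO1, KO2 and KO3, and at 15.6, 19.8 and 13.5 CPM in WT1, WT2 and WT3. KO2 was above WT1 and WT3, so the groups overlapped. The means were 12.3 ± 4.27 CPM in KO and 16.3 ± 3.21 CPM in WT (SD, n = 3 each), with a log2 fold change of -0.40 (SE 0.29, 95% interval -1.10 to 0.29) and an adjusted p of 0.696 (edgeR, BH). Without WT1 the log2 fold change was -0.42 and the adjusted p 0.609.

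H2-Aa (chromosome 17, 34282744 to 34287823, minus strand) encodes the alpha chain that pairs with it. It was at 4.15, 2.40 and 2.82 CPM in KO1, KO2 and KO3, and at 6.63, 5.67 and 3.88 CPM in WT1, WT2 and WT3. KO1 lay above WT3, and the other 2 KO libraries lay below every WT library. Its log2 fold change was -0.78 (SE 0.32, 95% interval -1.54 to -0.02), with an unadjusted p of 0.0454 and an adjusted p of 0.69 (edgeR, BH). Without WT1 it was -0.59, with an adjusted p of 0.428.

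H2-Eb1 (chromosome 17, 34305867 to 34316674, plus strand), the beta chain of I-E, varied most among the chains. It was at 3.36, 6.21 and 2.14 CPM in KO1, KO2 and KO3, and at 1.75, 7.28 and 4.63 CPM in WT1, WT2 and WT3. The lowest and the highest library were both WT, so all KO libraries lay inside the WT range. The log2 fold change was -0.22 (SE 0.58, 95% interval -1.61 to 1.16) over 6 libraries and -0.59 without WT1, with adjusted p of 0.884 and 0.606 (edgeR, BH). Leaving out KO3 or WT2 from the 6 libraries turned it positive, to 0.07 and 0.27.

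The observed spread of every member between libraries of a genotype was above that from counting error, as it may be between separate samples. Some margins were small, and none was tested. Ctss varied by 6.69% in KO and 13.4% in WT, where counting alone gives 4.99% and 4.01%. For H2-Ab1 the coefficient of variation was 34.7% in KO and 19.7% in WT, where counting alone gives 7.0% and 6.06%. For H2-Eb1 it was 53.4% in KO and 60.8% in WT, where counting alone gives 12.4% and 11.2%. Cd74 varied by 6.27% in KO and 13.7% in WT, with 4.15% and 3.26% from counting. H2-Aa varied by 29.3% in KO and 25.9% in WT, and H2-DMa by 13.0% in KO and 31.9% in WT, where counting alone gives 8.12% to 13.8%. Among KO libraries both beta chains were highest in KO2, then KO1, then KO3, whereas H2-Aa was lowest in KO2. The ratio of H2-Ab1 to H2-Aa per kilobase was 18.6 in KO2 and 7.55 and 7.82 in KO1 and KO3, and it was 6.24 to 9.26 in WT libraries.

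H2-DMa (chromosome 17, 34119541 to 34139101, plus strand) encodes the alpha chain of the peptide editor. It was at 5.68, 7.07 and 7.28 CPM in KO1, KO2 and KO3, and at 12.6, 7.68 and 7.32 CPM in WT1, WT2 and WT3. No KO library reached a WT library, but KO3 and WT3 were nearly level and WT1 was far above the rest. For H2-DMa the log2 fold change was -0.46 (SE 0.27, adjusted p 0.69) with WT1 and -0.16 (SE 0.21, adjusted p 0.809) without it (edgeR, BH). Counting H2-DMa, 3 of 7 members had every KO library below every WT library, as had 9.11% of all tested genes; without WT1 the same 3 did, as had 14.3% of all tested genes.

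Ciita (chromosome 16, 10480059 to 10528418, plus strand), the master switch of class II genes, was near the limit of what these libraries could measure. It had 20, 27 and 40 counts in KO1, KO2 and KO3 and 10, 37 and 17 counts in WT1, WT2 and WT3, or 1.22, 1.66 and 2.26 CPM in KO and 0.698, 2.47 and 0.61 CPM in WT. The highest and the 2 lowest libraries were all WT. The summed counts were 87 in KO (95% exact Poisson interval 69.7 to 107) and 64 in WT (49.3 to 81.7), intervals that cover counting error only. Its log2 fold change was 0.47 (SE 0.62, 95% interval -1.0 to 1.94) and the adjusted p 0.779 (edgeR, BH). Without WT1 it was 0.24 (SE 0.56, adjusted p 0.91), and leaving out KO3 or WT3 as well turned it to -0.03 and -0.52. A change of Ciita as large as that of Cd74, in either direction, lay inside this interval and was not detectable with these libraries. Ciita varied by 30.4% between KO libraries and 83.3% between WT libraries, where counting alone gives 18.6% and 22.7%.

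**Figure D2:**
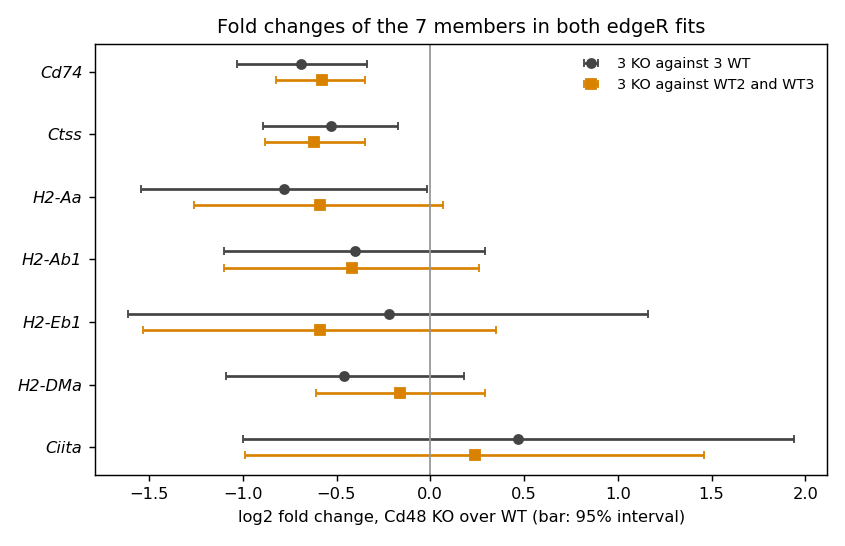
Log2 fold change of Cd48 KO over WT (x axis) for each member, with its 95% interval, from edgeR on all 6 libraries (grey circles) and without WT1 (orange squares). The intervals of Cd74 and Ctss lie below 0 in both fits, and those of H2-Ab1, H2-Eb1, H2-DMa and Ciita span 0 in both.

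Ranked by level per kilobase of longest transcript, the members had the same order in both genotypes. Cd74 came first at 24.6 CPM per kilobase in KO and 39.6 in WT, and Ctss followed at 17.7 in KO and 25.6 in WT. H2-Ab1 was at 10.1 in KO and 13.4 in WT, and H2-DMa at 3.33 in KO and 4.58 in WT. H2-Eb1 was at 2.34 in KO and 2.73 in WT, H2-Aa at 0.969 in KO and 1.67 in WT, and Ciita at 0.285 in KO and 0.21 in WT. Neighbours in this order did not overlap between libraries of a genotype down to H2-DMa; H2-DMa overlapped H2-Eb1 in KO and WT, and H2-Eb1 overlapped H2-Aa in both as well, in KO by a narrow margin (KO3 and KO1 both at 1.29). Among all tested genes Cd74 stood at the 80.6th percentile of level per kilobase, H2-Ab1 at the 59.6th, H2-Aa at the 19.9th and Ciita at the 3.3rd. Per kilobase, Cd74 exceeded H2-Aa 19.3-fold to 34.9-fold in KO and 21.8-fold to 28.3-fold in WT, and it exceeded H2-Ab1 1.88-fold to 3.35-fold in KO and 2.45-fold to 3.49-fold in WT. The place of H2-Aa rests on its longest transcript of 3223 bases, against 1669 for H2-Eb1, 1212 for H2-Ab1 and 1410 for Cd74. A shorter H2-Aa transcript would raise its level per kilobase. In CPM, H2-Aa averaged 3.12 in KO and 5.39 in WT, and H2-Eb1 3.90 and 4.55. Which transcripts were present was not tested.

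Among the other class II genes of the list used, 3 of 7 were measured and 2 were tested, and none was called in either fit (1 of the 2 had an unadjusted p under 0.05 in each). H2-Oa, a chain of the inhibitor that restrains H2-DM, was at 7.02, 6.39 and 8.35 CPM in KO1, KO2 and KO3, and at 14.2, 10.8 and 10.0 CPM in WT1, WT2 and WT3. Its libraries did not overlap between the genotypes. This chain had a log2 fold change of -0.68 (SE 0.21, adjusted p 0.69) over 6 libraries and -0.52 (SE 0.19, adjusted p 0.25) without WT1 (edgeR, BH). H2-DMb1, the beta chain of the editor, had log2 fold changes of -0.21 and 0.04 in the 2 fits. H2-Ob, the partner of H2-Oa, was too low to test, at 0.122 to 0.169 CPM in KO libraries and 0 to 0.628 CPM in WT libraries.

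Of 14 tested genes for peptide supply, invariant chain processing and turnover, 0 were called in either fit (1 with an unadjusted p under 0.05 in each). Their median log2 fold change was -0.07 over 6 libraries and -0.03 without WT1. The most abundant were the endosomal proteases Ctsd, Ctsz and Ctsb and the cathepsin inhibitor gene Cst3, with log2 fold changes of -0.08, -0.05, -0.17 and -0.27 over 6 libraries and -0.09, 0.07, 0.00 and -0.04 without WT1. Ctsd, Ctsz and Ctsb were at 892, 518 and 394 CPM on average in KO, and at 944, 536 and 441 CPM in WT.

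Of 21 transcription factors and inducers of class II genes, 0 were called in either fit. Their medians were -0.16 and -0.09. Over 6 libraries 0 had an unadjusted p under 0.05, and without WT1 5 had, as had 1865 of all 13643 tested genes (edgeR). Irf8, Irf1 and Rfxank were lower in KO without WT1 (-0.51, -0.27 and -0.33), and Nfyb and Il4ra higher (0.21 and 0.13). Their adjusted p were 0.0862 or above (edgeR, BH). Over 6 libraries Irf8, Irf1 and Nfyb were at -0.25, -0.06 and -0.27. The most abundant were the cytokine signalling genes Jak1, Il4ra, Stat6 and Socs1, with log2 fold changes of 0.18, 0.36, 0.07 and -0.24 over 6 libraries and 0.02, 0.13, -0.02 and -0.13 without WT1. The RFX subunits that hold the X box were named after their values were seen. Rfx5, Rfxap and Rfxank had log2 fold changes of 0.13, -0.51 and -0.21 over 6 libraries, where Rfx5 alone was positive. Without WT1 all were negative, at -0.09, -0.22 and -0.33. Their adjusted p were 0.301 or above in both fits (edgeR, BH).

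Of 7 tested costimulatory ligands for CD4+ T cells, 0 were called over 6 libraries (1 with an unadjusted p under 0.05), and 1 was called lower and 0 higher without WT1. That gene was Tnfsf4, the OX40 ligand, at 89.5, 79.1 and 84.8 CPM in KO1, KO2 and KO3, and at 126, 149 and 144 CPM in WT1, WT2 and WT3. Its log2 fold change was -0.73 (SE 0.12, adjusted p 0.525) over 6 libraries and -0.79 (SE 0.08, adjusted p 0.000177) without WT1 (edgeR, BH). Tnfsf4 lies 10.26 Mb from Cd48 on chromosome 1; none of the 7 members is on that chromosome. Icosl, Tnfsf9 and Cd274, the other abundant ligands, had log2 fold changes of -0.11, 0.06 and 0.27 over 6 libraries and -0.14, 0.16 and -0.07 without WT1, so the sign for Cd274 depended on WT1. Cd86 stayed under 1 CPM in every library, as did Cd70.

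**Figure D3:**
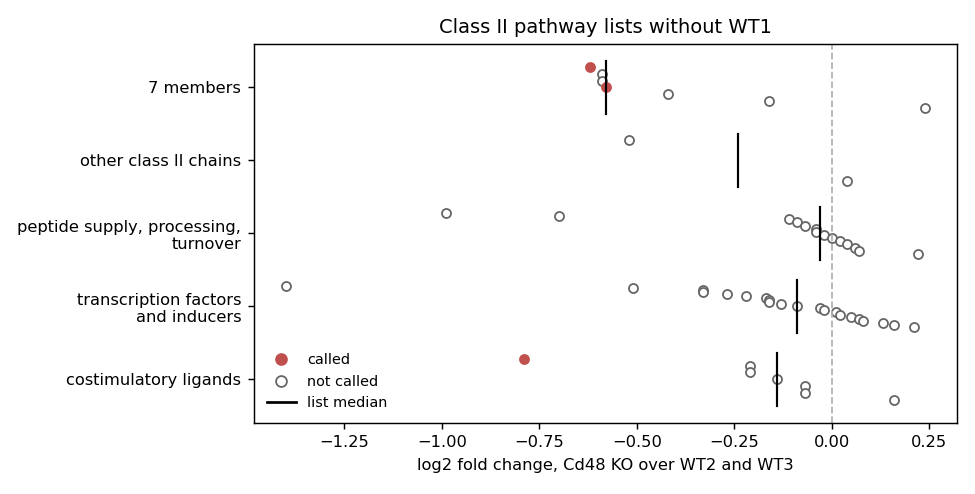
Log2 fold change of Cd48 KO over WT2 and WT3 (x axis) for each tested gene of the 5 class II pathway lists, spread vertically within a list by rank (filled: called by edgeR; black line: list median). The called genes are Cd74 and Ctss among the members and Tnfsf4 among the ligands, and the processing and regulator lists centre at -0.03 and -0.09.

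Professional antigen-presenting cells and lung epithelium carry class II, so their markers were read in the same libraries. Of 7 B cell markers 3 were measured, with Cd79a at 0.28 CPM or less in every library. Their sum was 12.4 to 17.5 CPM in KO libraries and 14.8 to 20.7 CPM in WT libraries, nearly all of it Cd79b. Of 8 dendritic cell markers 4 were measured, with a sum of 51.7 to 58.3 CPM in KO and 58.4 to 67.2 CPM in WT, nearly all of it Xcr1. Flt3, which marks dendritic cells and their precursors, was at 0 to 0.18 CPM in KO and 0 to 0.25 CPM in WT. Of 7 T cell markers 4 were measured, with a sum of 13.7 to 15.8 CPM in KO and 25.7 to 43.8 CPM in WT, mostly Cd3g, which had a log2 fold change of -1.19 (adjusted p 0.572) over 6 libraries and fell without WT1 (-0.92, adjusted p 0.0069; edgeR, BH).

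Macrophage and epithelial transcripts differed widely between libraries. Of 12 macrophage and monocyte markers 8 were measured, and they summed to 73.9, 121 and 10.1 CPM in KO1, KO2 and KO3, and to 49.6, 127 and 235 CPM in WT1, WT2 and WT3. Chil3, a chitinase-like protein of alveolar macrophages, made up most of this. Mrc1 was at 0 in every KO library and in WT1, and at 0.134 and 0.754 CPM in WT2 and WT3. In KO libraries the macrophage sum, like H2-Ab1 and H2-Eb1, was highest in KO2 and lowest in KO3. Of the same list, Chil3 (67.8, 113 and 8.58 CPM in KO1, KO2 and KO3) and Lyz2 (1.47, 5.66 and 0.621 CPM) had this order. Csf1r and Adgre1 did not have it. In WT libraries the sum was highest in WT3 and both beta chains in WT2. Lyz2 was at 1.68, 14.0 and 16.8 CPM in WT1, WT2 and WT3. Its log2 fold changes were -2.08 over 6 libraries and -2.59 without WT1, with adjusted p of 0.69 and 0.333 (edgeR, BH). Without WT1, every KO library lay below WT2 and WT3 for Lyz2, C1qa, C1qb, C1qc and Mrc1, as for 14.3% of all tested genes. Chil3, Csf1r and Adgre1 overlapped. The C1q genes, at 0 to 0.122 CPM in KO and 0 to 1.07 CPM in WT, were too low to test. Of 11 epithelial markers 10 were measured, and they summed to 20.8, 16.0 and 29.9 CPM in KO1, KO2 and KO3, and to 35.5, 92.3 and 78.0 CPM in WT1, WT2 and WT3. Sftpd and Krt8 were at 0 in every KO library. In WT1, WT2 and WT3 Sftpd was at 0, 1.2 and 0.502 CPM, and Krt8 at 5.17, 5.01 and 0.287 CPM. Epcam, an epithelial adhesion gene, had a log2 fold change of -0.82 (adjusted p 0.659) over 6 libraries and fell without WT1 (-0.83, adjusted p 0.0347; edgeR, BH), and the club cell gene Scgb1a1 was at 0 to 12.9 CPM in KO and 1.82 to 47.2 CPM in WT. The part of these cell types in the levels of H2-Ab1, H2-Eb1 and the other members was not tested.

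**Figure D4:**
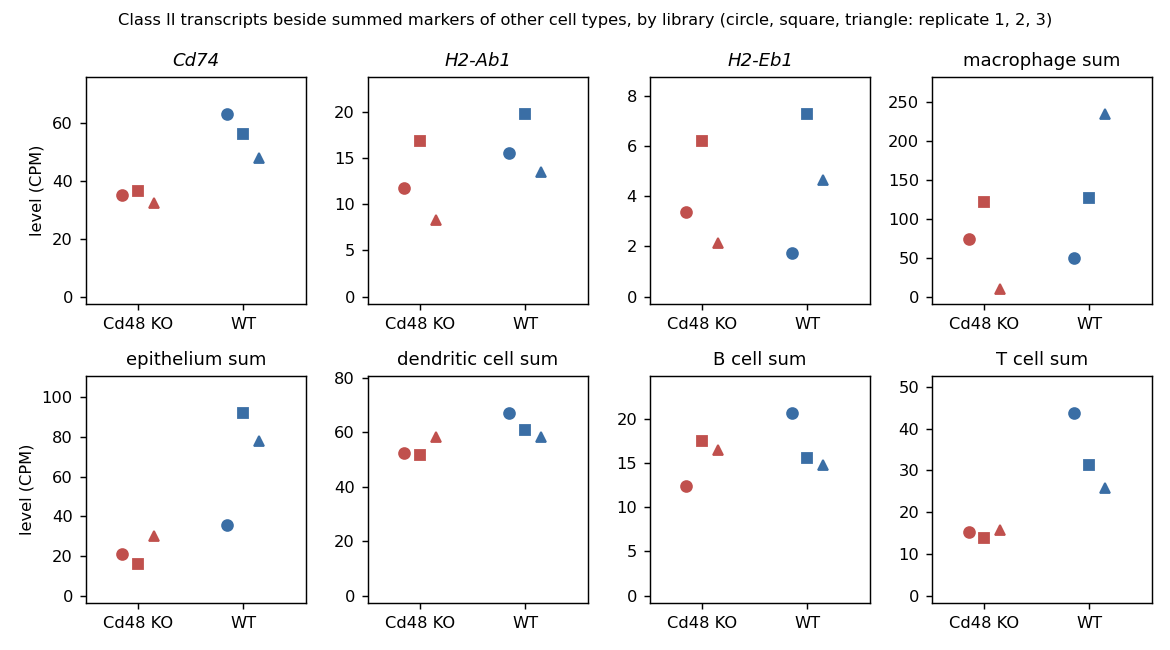
Levels (y axis, CPM, each panel on its own scale) of Cd74, both class II beta chain genes and the summed markers of 5 other cell types in the Cd48 KO and WT libraries (circle, square and triangle are replicates 1, 2 and 3). The T cell sum is lower in every KO library (13.7 to 15.8 CPM) than in any WT library (25.7 to 43.8 CPM), and so is the epithelium sum (16.0 to 29.9 CPM in KO, 35.5 to 92.3 CPM in WT), while the dendritic cell sums of the genotypes nearly meet (58.3 and 58.4 CPM) and the B cell and macrophage sums overlap.

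The genes whose pattern over the 6 libraries was nearest to that of Cd74 were sought among 8673 tested genes averaging 10 CPM or more, by the root mean square difference of centred log2 CPM. The nearest was Igtp, an interferon-inducible GTPase gene, at a difference of 0.099, followed by Pex19 (0.102), Nck2 (0.106), Ifi47 (0.108) and Ramp1 (0.112). The median over all candidates was 0.40. Igtp was at 81.5, 82.0 and 79.0 CPM in KO1, KO2 and KO3, and at 126, 118 and 111 CPM in WT1, WT2 and WT3. Ifi47, another gene of that GTPase family, was at 71.2, 65.8 and 66.4 CPM in KO and 140, 118 and 109 CPM in WT. Pex19 lies 0.42 Mb from Cd48. Among the members, Ctss was the nearest to Cd74 at 0.241, and H2-Eb1 and Ciita were the farthest at 0.811 and 0.916. The genes nearest to the mean of H2-Aa, H2-Ab1 and H2-Eb1 were Limk1, Gna11, Taf5, Cdk8 and Prrc2b, at differences of 0.203 to 0.208, where the median over all candidates was 0.45. H2-Ab1 itself lay 0.15 from that mean. H2-Aa and H2-Eb1 lay 0.472 and 0.505 from it, above the median of the candidates, so the mean is not a pattern common to the chains.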

How the data were processed

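The deposited values are estimated counts that the authors left unscaled: 60.2% of the non-zero ones are whole within 0.001, and library totals differ. STAR 2.7.8, Partek 10.0, DESeq2 and the build mm10 appear, per the submitters' processing notes, with no role attached. Which counter, annotation and strand setting were used is not given in the sources used here. Counts were rounded to whole numbers and tested in R 4.3.3 with edgeR 4.0.16 (robust quasi-likelihood fit, TMM scaling, genotype as the only term, genes kept by filterByExpr with a minimum count of 10 and a minimum total of 15) over the whole table. Calls are at an adjusted p under 0.05 after Benjamini-Hochberg adjustment over all tested genes. CPM use TMM-scaled library sizes over the 6 libraries. The same fit was made without WT1. DESeq2 1.42.0 and limma 3.58.1 were alternatives, with others given in the closing section. Standard errors were derived from the F statistic of each gene.

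Of the genes, 97.6% matched the GENCODE M21 annotation (GRCm38), which gave positions and the longest transcript. Opposite-strand genes overlap Il5, Flt3, Krt8, H2-Eb1, H2-DMa, Ciita, H2-Oa, Ctsb, Ctsz, Stat6, Jak1, Il4ra, Irf1, Rfx5, Rfxank, Tnfsf9, Cd274, Csf1r and Ifi47. Same-strand genes overlap Cd74 (Mir5107), Ctss (Hmgb1-ps5), H2-DMa, Cd48, Ctsd, Jak1, Irf8, Il2ra, Mrc1, Csf1r, Nck2, Igtp and Ifi47. The reads of such pairs cannot be told apart with certainty. Overlaps of Limk1, Gna11, Taf5, Cdk8 and Prrc2b were not examined. Igtp and Ifi47 have close relatives. No pair of libraries of a genotype agreed within sampling noise (chi-square per gene 5.52 to 149). The members, lists and the fit without WT1 were chosen with earlier results of these data known. Genes were named by rule. These were the members and, of each pathway list, the called and the 4 most abundant genes. Markers of other cell types averaging 10 CPM or more were named too, as were defining markers at or near 0 and the 5 genes nearest in pattern. Other named genes were chosen after their values were seen, such as the RFX subunits, Thy1, Irf8, Irf1, Nfyb, Lyz2, the C1q genes, Csf1r, Adgre1, Cd86 and Cd70. The pattern measure used a prior count of 2 in log2 CPM. Simulated counts with known changes were used to check the edgeR fit, over 6 libraries and without WT1. DESeq2 and limma-voom were not checked in this way.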

Additional observations from a re-analysis of the deposited data

How the results depend on the processing

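With all 6 libraries edgeR called 4 genes. DESeq2 called 108, limma-voom with sample quality weights 95 and the fit with a replicate block 0 (776 at an unadjusted p under 0.05); each library left out in turn gave 0 to 248. The count of members called, 0 in edgeR, was 1 under DESeq2 and 1 under sample quality weights (Cd74 in both), and 0 to 2 with a library left out. Without WT1 edgeR called 248 genes, DESeq2 412 and the replicate block 570; a further library left out gave 65 to 517 genes and 0 to 2 members, while the other 7 settings gave 2 members each. Same-numbered libraries did not deviate together (Pearson's r across genes -0.05, -0.04 and -0.01). The deviations were from group means, and the WT mean included WT1, which stood apart. These values therefore do not settle whether the replicate numbers pair samples. The log2 fold change stayed negative in all 16 alternatives over 6 libraries for Cd74 (-0.78 to -0.56) and Ctss (-0.62 to -0.42), and in all 12 without WT1 (-0.70 to -0.47 and -0.73 to -0.49). H2-Eb1 turned positive when KO3 (0.07) or WT2 (0.27) was left out, within a range of -0.73 to 0.27. Without WT1, Ciita turned negative when KO3 (-0.03) or WT3 (-0.52) was also left out, within -0.52 to 1.48. The cause of these turns was not tested. Fits with a lone WT library take its variation from the KO libraries. A trend on transcript length in the offsets gave log2 fold changes of -0.56 for Cd74 and -0.43 for Ctss over 6 libraries. The KO level of the 7 members summed was 0.679 of the WT level, and 0.645 to 0.714 with a library left out. Cd74 and Ctss made up most of this sum, as in KO1 (35.1 and 25.4 of 86.7 CPM) and WT1 (63.3 and 30.6 of 131 CPM). The sum therefore mainly follows these genes and does not show a fall of each member. Counting error was largest for Ciita among the members (18.6% in KO and 22.7% in WT), and its spread between libraries was wider than that.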
